A study of Mus musculus with 9 samples.

Results

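A set of 9 genes of the interferon response was followed through the reprogramming of mouse spermatogonial stem cells (SSC) to induced pluripotent stem cells (iPSC). They were Ifnar1, Stat2, Irf9, Irf1, Ifih1, Isg15, Ifitm1, Ifitm2 and Ifitm3. Of 54913 assembled loci used from the deposited table, 25887 could be matched by extent to a gene, which named 11745 genes, and each member was found by the position of its locus on the GRCm38 mouse genome and not by the name printed in the table. Stat2, Irf1, Isg15, Ifih1 and Ifnar1, 5 of the 9, had a matched locus of their own, and the other 4 were given from the locus that overlaps them most. Irf9 lay in a locus that also covered Rnf31, a ubiquitin ligase gene, so its values are those of both genes. Ifitm2 and Ifitm3 lay in a single locus and could not be told apart, so the 9 genes gave 8 loci.

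RNA-seq was run on 3 SSC, 3 SSCiPSC and 3 fiPSC libraries, where SSCiPSC are iPSC made from SSC and fiPSC are iPSC made from fetal fibroblasts. All 3 groups came from 1 mouse model that carries the reverse tetracycline transactivator at Gt(ROSA)26Sor (tm1(rtTA*M2)Jae) and the doxycycline-driven reprogramming cassette tetO-Pou5f1,-Sox2,-Klf4,-Myc (tm3, Jae) at the Col1a1 gene, so the SSC carried the same transgenes as the iPSC. SSC were taken from testes at postnatal day 6, were sorted on magnetic beads for the surface receptor Gfra1 and were not passaged. The iPSC were clonal lines picked as colonies under doxycycline, kept in medium with LIF, then weaned from doxycycline according to the methods, while the labels list it in the medium. They are labelled passage 10 to 11, while the methods give passage 13 to 14 for the cells sorted for SSEA1 before RNA extraction. The libraries are described as biological samples, but nothing states that the 3 of a group came from separate animals or lines, so p-values measure the spread between these libraries, part of which may be technical.

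Type I interferons bind a receptor of the Ifnar1 and Ifnar2 chains, whose Janus kinases phosphorylate STAT transcription factors, Stat2 among them. Stat2 and Irf9 are part of a complex that binds the interferon-stimulated response element in target promoters, while Irf1 is a transcription factor best known downstream of interferon gamma. Among the targets, Ifih1 encodes the RNA sensor MDA5, Isg15 a ubiquitin-like modifier, and the Ifitm genes small membrane proteins that block virus entry. Ifitm genes are also known for their expression in early germ cells and in pluripotent cells without interferon treatment.

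The promoters of these genes are shown where they hold a core of either response element. The genes did not share 1 direction between SSC and iPSC, and whether the motifs bear on this was not tested. The motifs searched on both strands were GAAA, any 2 bases and GAAA again, a core of the interferon-stimulated response element, and TTC, any 3 bases and GAA, a core of the gamma-activated site bound by STAT dimers, in the window from 250 bases before to 50 bases after each RefSeq start (GRCm38.p6). The first was found in 5 of the 9 genes (55.6%), against 3.99% of 27025 genes with a promoter in the table. The second was found in 3 of the 9 genes (33.3%), against 9.55% of all genes. Among other interferon pathway genes, 25 of 83 held the first (30.1%) and 21 of 83 the second (25.3%). Ifitm1 and Irf9 held neither in this window. Capitals mark the letters found, overlapping matches are joined, and positions count from the start, whose own base is 0.
Stat2 (response element on the other strand, first base at -222; chr10:128270256-128270305, plus strand): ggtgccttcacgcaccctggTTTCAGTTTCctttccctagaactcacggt
Irf1 (gamma-activated site, first base at -90; chr11:53769904-53769952, plus strand): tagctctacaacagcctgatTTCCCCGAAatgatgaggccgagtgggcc
Isg15 (3 overlapping response elements, the first at -78; chr4:156200855-156200916, minus strand): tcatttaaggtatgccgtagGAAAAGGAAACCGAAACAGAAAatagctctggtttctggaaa
Ifitm2 (response element, first base at -46; chr7:140955978-140956027, minus strand): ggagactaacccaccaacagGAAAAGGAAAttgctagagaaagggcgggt
Ifitm3 (response elements at 2 and 19 and a gamma-activated site at 13 that overlaps the second of them; chr7:141010714-141010743, minus strand): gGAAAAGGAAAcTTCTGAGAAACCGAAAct
Ifih1 (response element, first base at 32; chr2:62646206-62646235, minus strand): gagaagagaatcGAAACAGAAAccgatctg
Ifnar1 (gamma-activated site, first base at -5; chr16:91485209-91485238, plus strand): gTTCACGGAAggggcggggcgctggagggg

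Values are FPKM, the fragments assigned to a locus per kilobase of its transcript and per 1000000 mapped, so levels can be set beside each other between genes as well as between libraries. Depth was estimated from the steps that single fragments leave in the low values, since the table holds no counts. It came to 1.73, 4.69 and 1.40 M fragments (M for 1000000) in SSC replicates 1, 2 and 3, to between 13.6 and 15.5 M in SSCiPSC and to between 13.1 and 17.3 M in fiPSC. The SSC libraries were thus the shallowest, and 29.98, 18.9 and 35.4% of all loci were listed at 0 in them.

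The labels were set against marker genes. The germ line list (14 genes, all with a locus) summed to 834, 1019 and 695 FPKM in the SSC libraries, led by Dazl, an RNA-binding protein of germ cells. It summed to between 361 and 670 in the 6 iPSC libraries, led by Etv5 by the mean of each iPSC group. Of its 14 genes, 13 passed an adjusted p of 0.05 in limma in each comparison with SSC, 9 lower and 4 higher in iPSC. Of all loci tested 50.3% passed for SSCiPSC and 51.8% for fiPSC. Of named genes (1 locus each) 7191 of 10405 and 7472 of 10505 did. The pluripotency list summed to between 69.8 and 77.1 FPKM in SSC, where Nanog was listed at 0, and to between 1671 and 2186 in the 6 iPSC libraries, led by Pou5f1. Markers of Sertoli cells, the somatic cells that surround germ cells, were also abundant in SSC, at a sum of 1444, 1461 and 1177 FPKM for 8 of 11 genes, led by Clu. The SSC libraries thus held RNA of other testis cells. In such bulk samples fewer cells of a type and less RNA per cell cannot be told apart.

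The Ifitm genes were the members that rose most from SSC to iPSC, and the receptor chain Ifnar1 fell. Irf1 was also lower in iPSC, while Stat2 and the locus with Irf9 had changes under 1 on the log2 scale, of which 1 passed the test. Ifih1 was low in iPSC and Isg15 was close to the detection limit in all 3 groups. Genes were compared with limma on log2(FPKM + 1), for loci that reached 1 FPKM in 3 or more of the 6 libraries compared, and an adjusted p below 0.05 was called. Between SSCiPSC and SSC, 6 of the 8 member loci were tested and 4 were called, 2 higher and 2 lower in SSCiPSC, where 50.3% of all loci tested were called (26.2% higher, 24.1% lower). Between fiPSC and SSC, 5 of 6 were called, 3 higher and 2 lower, where 51.8% of all loci were called (28.0% higher, 23.7% lower). Ranges of the 2 groups were apart for 4 of the 6 in the first comparison and for 5 of the 6 in the second, where they were apart for 59.8 and 61.6% of all loci tested. Each of the 6 loci had over 1 FPKM in all 9 libraries, so none passed the filter through 1 group alone. Both comparisons use the same SSC libraries. The median log2 fold change of the 6 was 0.34 between SSCiPSC and SSC and 0.55 between fiPSC and SSC, against 0.11 and 0.17 over all loci tested. All 6 also passed a stricter filter that asked for 5 FPKM or more on average. Loci kept by that filter had medians of 0.34 and 0.29, and 10070 of 17141 and 10528 of 17246 were called. Against loci of such levels the median of the 6 was thus about equal for SSCiPSC and higher for fiPSC. Between fiPSC and SSCiPSC 0 of 6 members were called, where 23 of 33948 loci (0.0678%) were, and 1 member had an unadjusted p below 0.05 in limma, against 11.7% of all loci.

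**Figure D1:**
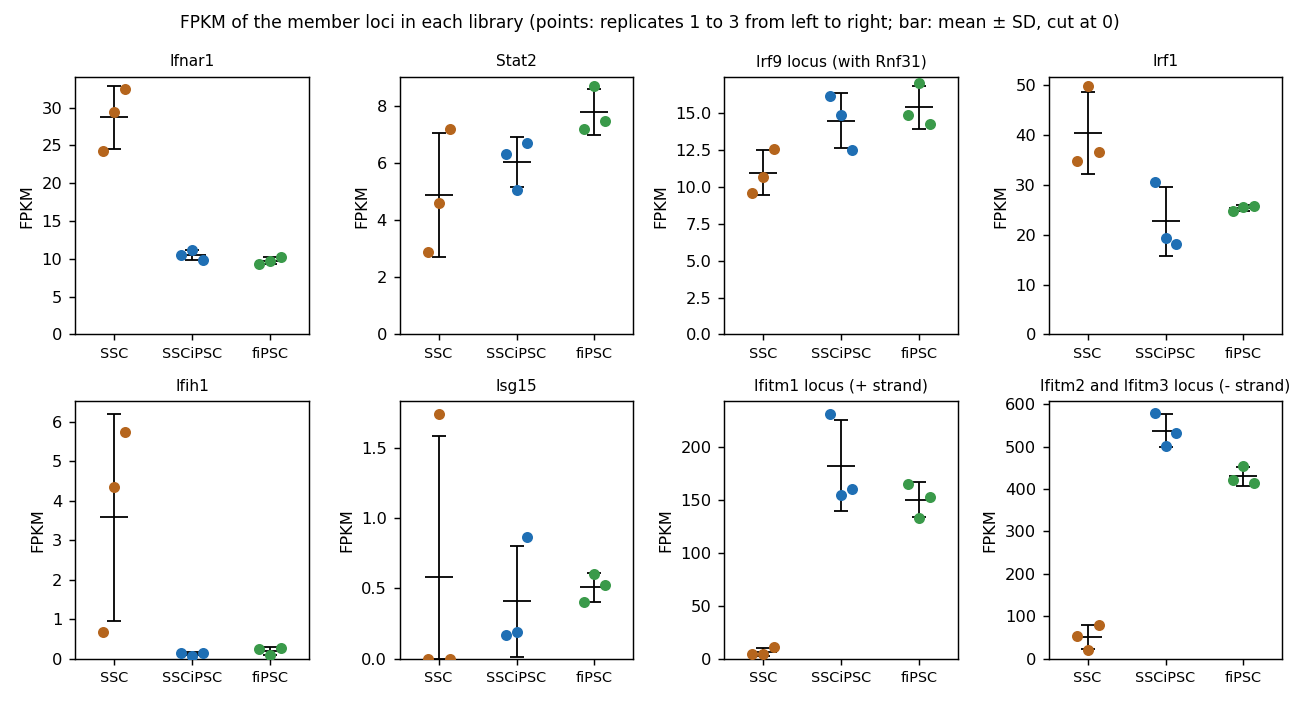
FPKM (vertical axes, linear, each from 0) of the 8 member loci in the 3 SSC, 3 SSCiPSC and 3 fiPSC libraries; points are libraries and bars the mean ± SD, drawn no lower than 0. Both Ifitm loci sit far above SSC in all 6 iPSC libraries, and Ifnar1 sits between 9.29 and 11.2 FPKM in iPSC and between 24.2 and 32.4 in SSC.

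Ifnar1, the receptor chain shared by all type I interferons (chromosome 16 from 91475341 to 91507053), stood at 24.2, 29.4 and 32.4 FPKM in replicates 1, 2 and 3 of the SSC. It had 10.5, 11.2 and 9.80 FPKM in SSCiPSC and 9.29, 9.71 and 10.2 in fiPSC. Every iPSC library was below every SSC library, and the 2 kinds of iPSC overlapped. Ifnar1 fell by 1.36 on the log2(FPKM + 1) scale in SSCiPSC (standard error, SE, 0.17, limma adjusted p = 0.000868) and by 1.46 in fiPSC (SE 0.14, limma adjusted p = 0.000424). It stood above 79.1% of named genes in SSC and above 51.5 and 50.2% in SSCiPSC and fiPSC.

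Stat2, which carries the transactivation domain of the interferon-induced complex (chromosome 10 from 128270512 to 128291494), stood at 2.90, 4.59 and 7.21 FPKM in SSC. It had 6.34, 5.05 and 6.71 FPKM in SSCiPSC and 7.19, 8.71 and 7.49 in fiPSC. The SSC values spread 2.49-fold from lowest to highest and overlapped both kinds of iPSC. The log2 fold change was 0.31 for SSCiPSC (SE 0.32, limma adjusted p = 0.461) and 0.64 for fiPSC (SE 0.30, limma adjusted p = 0.122). Without SSC replicate 3 the fiPSC difference was 0.91 and passed the test (limma adjusted p = 0.0207). A locus without a strand over the end of Stat2 had 5.77, 6.61 and 6.76 FPKM in SSC, between 6.96 and 8.84 in SSCiPSC and between 6.39 and 10.2 in fiPSC.

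The locus with Irf9, the DNA-binding partner of Stat2, and Rnf31 (chromosome 14 from 55590629 to 55609455) stood at 9.58, 10.7 and 12.6 FPKM in SSC. It had 16.1, 14.8 and 12.5 FPKM in SSCiPSC and 14.8, 17.0 and 14.3 in fiPSC. The fiPSC values were all above SSC, and 1 SSCiPSC library lay within the SSC range. The log2 fold change was 0.37 for SSCiPSC (SE 0.18, limma adjusted p = 0.136) and 0.46 for fiPSC (SE 0.15, limma adjusted p = 0.0453). The fiPSC call held in 5 of 15 alternative analyses, with adjusted p from 0.0232 to 0.136, and was lost among others without SSC replicate 1 or 2 or without any 1 of the 3 fiPSC libraries.

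Irf1, the transcription factor with a gamma-activated site in its promoter above (chromosome 11 from 53769999 to 53777507), stood at 34.7, 49.8 and 36.4 FPKM in SSC. It had 30.6, 19.3 and 18.0 FPKM in SSCiPSC and 24.7, 25.5 and 25.8 in fiPSC. No iPSC library reached the lowest SSC library, although SSCiPSC replicate 1 was close to it. Irf1 fell by 0.83 on the log2 scale in SSCiPSC (SE 0.25, limma adjusted p = 0.0312) and by 0.63 in fiPSC (SE 0.16, limma adjusted p = 0.0158). Leaving out some single libraries ended each call. For SSCiPSC the limma adjusted p became 0.0840, 0.102 and 0.106 without SSC replicate 2, SSCiPSC replicate 2 and SSCiPSC replicate 3, and for fiPSC 0.0601 and 0.0503 without fiPSC replicates 1 and 2.

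Ifih1, the sensor of long double-stranded RNA (chromosome 2 from 62597756 to 62646207), stood at 0.676, 4.33 and 5.75 FPKM in SSC, an 8.501-fold spread. It had 0.151, 0.0787 and 0.139 FPKM in SSCiPSC and 0.248, 0.0902 and 0.276 in fiPSC. All 6 iPSC libraries were below the lowest SSC library, whose value rests on about 6 fragments. The SSC mean was 29.2 times that of SSCiPSC and 17.5 times that of fiPSC. Ifih1 did not pass the filter on low values, and the groups did not overlap (exact permutation test, two-sided p = 0.1, the smallest that 3 libraries against 3 allow). Without the filter the log2 fold change was -1.81 for SSCiPSC (limma adjusted p = 0.0385) and -1.71 for fiPSC (limma adjusted p = 0.0465).

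Isg15, the modifier that is attached to other proteins after interferon exposure (chromosome 4 from 156199641 to 156200810), stood at 0, 1.74 and 0 FPKM in SSC. The value of 1.74 corresponds to about 5 fragments, and a count of 0 allows up to 3 fragments, which are worth 2.82 FPKM in SSC replicate 1 and 3.58 in replicate 3. It had 0.169, 0.192 and 0.863 FPKM in SSCiPSC and 0.400, 0.602 and 0.522 in fiPSC. Isg15 was at or near the detection limit throughout, so no fold change is given, and a level in SSC as low as that in iPSC was not detectable at this depth. Such limits cover counting error only. Its promoter held 3 overlapping response element cores, the most of any member.

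The Ifitm genes lie together on chromosome 7. Their loci share an interval from 140952478 to 141010986, 58509 bp long, over which the table lists 8 loci, 1 on the plus strand, 1 on the minus strand and 6 without a strand. The table has no strand column, and strand was read from the order of its rows. Ifitm1 is the only annotated gene of the plus strand there, so the plus-strand locus was taken as Ifitm1. Ifitm2 and Ifitm3 are both on the minus strand, at opposite ends of the interval, together with Gm45717 and the pseudogene Gm7514. The 6 loci without a strand reached at most 5.68 FPKM.

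**Figure D2:**
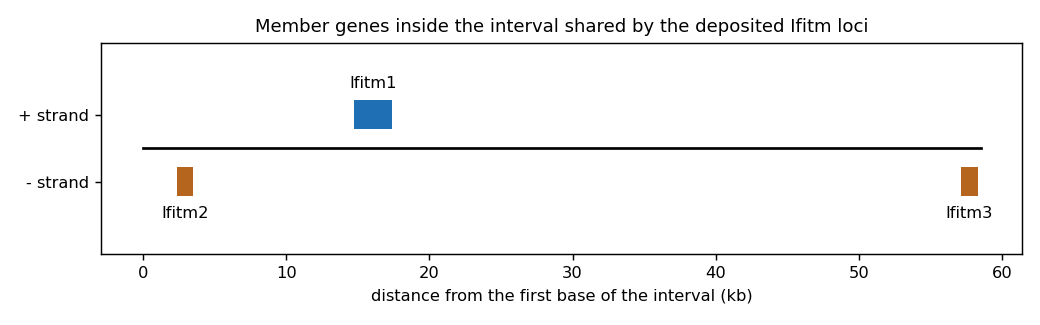
Position of Ifitm1, Ifitm2 and Ifitm3 by strand (vertical axis) along the interval shared by the deposited loci (horizontal axis, distance in kb from its first base). Ifitm1 is alone on the plus strand and Ifitm2 and Ifitm3 stand at opposite ends on the minus strand.

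The Ifitm1 locus had 4.68, 4.07 and 11.1 FPKM in SSC, about 6, 14 and 11 fragments if the longest annotated transcript is taken. It had 232, 154 and 161 FPKM in SSCiPSC and 165, 133 and 153 in fiPSC. Every iPSC library was above every SSC library, and the SSCiPSC mean was 27.5 times the SSC mean and the fiPSC mean 22.7 times, or 41.7 and 34.3 times without SSC replicate 3. The log2 fold change was 4.68 for SSCiPSC (SE 0.36, limma adjusted p = 0.000205) and 4.42 for fiPSC (SE 0.34, limma adjusted p = 0.000194).

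The locus with Ifitm2 and Ifitm3 had 53.0, 21.4 and 78.6 FPKM in SSC. It had 578, 502 and 532 FPKM in SSCiPSC and 422, 454 and 413 in fiPSC. Its SSC values spread 3.68-fold, yet the highest of them was far under the lowest iPSC library. The SSCiPSC mean was 10.5 times the SSC mean and the fiPSC mean 8.43 times. The log2 fold change was 3.55 for SSCiPSC (SE 0.44, limma adjusted p = 0.000934) and 3.23 for fiPSC (SE 0.44, limma adjusted p = 0.00148). With quantile-normalized values the changes were 2.61 and 2.41 (limma adjusted p = 0.00640 and 0.00935). The locus stood 97th from the top among named genes in SSCiPSC and 116th in fiPSC, against 1109th in SSC.

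In each library the locus with Ifitm2 and Ifitm3 was above that of Ifitm1, by 5.25 to 11.3 times in SSC and by 2.496 to 3.42 times in iPSC. Both loci kept their rise from SSC in all 14 alternative analyses, with log2 fold changes from 4.27 to 5.07 and from 2.61 to 3.95 for SSCiPSC and from 4.08 to 4.81 and from 2.41 to 3.63 for fiPSC.

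**Figure D3:**
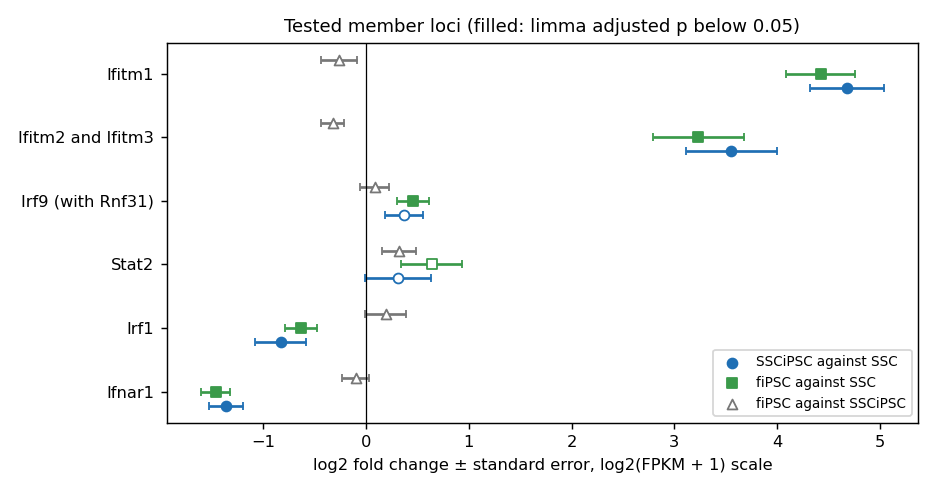
Log2 fold change (horizontal axis, log2(FPKM + 1) scale) of the 6 tested member loci in the comparisons of SSCiPSC with SSC, fiPSC with SSC and fiPSC with SSCiPSC; points are estimates, bars the standard error, and filled points passed an adjusted p of 0.05 in limma. The Ifitm loci lie between 3.23 and 4.68 against SSC and Ifnar1 at -1.36 and -1.46, while the fiPSC to SSCiPSC estimates lie between -0.32 and 0.33.

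The members kept different orders of level in the 2 cell states. In SSC the locus with Ifitm2 and Ifitm3 (51.0 ± 28.7 FPKM), Irf1 (40.3 ± 8.25) and Ifnar1 (28.7 ± 4.14) came first, followed by the Irf9 locus (10.9 ± 1.51), Ifitm1 (6.62 ± 3.90), Stat2 (4.90 ± 2.17), Ifih1 (3.59 ± 2.62) and Isg15 (SD, n = 3 each). The locus with Ifitm2 and Ifitm3 overlapped both Irf1 and Ifnar1 in range, and in SSC replicate 2 it lay below both. The 5 from the Irf9 locus to Isg15 also overlapped, each with its neighbour. In SSCiPSC the order was the locus with Ifitm2 and Ifitm3 (537 ± 38.6 FPKM), Ifitm1 (182 ± 42.9), Irf1 (22.6 ± 6.91), the Irf9 locus (14.5 ± 1.87), Ifnar1 (10.5 ± 0.701), Stat2 (6.03 ± 0.870), Isg15 (0.408 ± 0.394) and Ifih1 (0.123 ± 0.0388). In fiPSC the order was the same. From the first to Isg15 no neighbours overlapped in range in either kind of iPSC, and the order of Isg15 and Ifih1 in SSCiPSC was not resolved, since 2 of the values of Isg15 there were under the level of 3 fragments.

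Between the 2 kinds of iPSC the locus with Ifitm2 and Ifitm3 was lower in fiPSC by 0.32 on the log2 scale (SE 0.11), with an unadjusted p of 0.0216 and an adjusted p of 0.341 in limma. Every fiPSC library was below every SSCiPSC library at this locus. Stat2 was higher in every fiPSC than in every SSCiPSC library, with a log2 difference of 0.33 (SE 0.16, limma adjusted p = 0.490). These were the only 2 of the 6 tested members whose groups did not overlap, where 18.6% of all loci tested did not overlap. For Ifitm1 (log2 difference -0.26, SE 0.18), Irf1 (0.19, 0.20), Irf9 (0.09, 0.14) and Ifnar1 (-0.10, 0.13) the 2 groups overlapped.

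The rest of the interferon pathway was described from lists of 102 further genes, of which 64 had a locus of their own. Of 50 tested between SSCiPSC and SSC, 29 were called, 9 higher and 20 lower, where 50.3% of all loci and 7191 of 10405 named genes (1 locus each) were called. Of the 29, 9 passed the filter through SSC alone, so they had to differ, and of the 41 expressed in both groups 20 were called, 9 higher and 11 lower. Between fiPSC and SSC, 33 of 52 were called, 11 higher and 22 lower, where 51.8% of all loci and 7472 of 10505 named genes were called. Of these, 10 passed through 1 group alone, and of the other 42, 23 were called, 10 higher and 13 lower.

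Among receptors, Janus kinases, STATs and their inhibitors, 12 of 15 tested genes were called in each comparison with SSC, 3 higher and 9 lower in iPSC, Ifnar1 among the latter. The median log2 fold change of the 15 was -1.07 for SSCiPSC and -1.46 for fiPSC, against 0.11 and 0.17 over all loci tested (50.3 and 51.8% called). Of named genes (1 locus each), 7191 of 10405 and 7472 of 10505 were called. One of the 9, Il10rb, passed the filter through SSC alone, and without it 11 of 14 were called, 8 of them lower, with medians of -0.99 and -1.07. Ifnar2, the second chain of the type I receptor, had 10.4, 6.80 and 11.3 FPKM in SSC, 3.78, 2.87 and 3.83 in SSCiPSC and 1.92, 2.40 and 2.07 in fiPSC. Its groups did not overlap in any of the 3 comparisons, and its fall from SSC was 1.21 on the log2 scale in SSCiPSC (limma adjusted p = 0.00857). The interferon gamma receptor chains fell further. Ifngr2 went from 34.6, 44.2 and 33.9 FPKM in SSC to 1.87, 2.77 and 1.76 in SSCiPSC, or -3.63 on the log2 scale (SE 0.21, limma adjusted p = 9.66e-05), and Ifngr1 fell by 2.88. Il10rb, a chain shared by the interferon lambda and interleukin 10 receptors, fell from 14.7 FPKM in SSC to 0.367 in SSCiPSC and 0.311 in fiPSC (means of 3). Ifnlr1, the chain specific to interferon lambda, did not pass the test, and its values of 0, 1.47 and 2.46 FPKM in SSC overlapped those of both kinds of iPSC (1.25 to 2.41).

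Jak1, Jak2 and Stat3 were lower as well, and Tyk2 and Stat2 did not pass the test. Jak2, which serves the gamma receptor, had 38.1, 33.7 and 34.4 FPKM in SSC, 3.51, 2.44 and 3.32 in SSCiPSC and 2.38, 2.21 and 2.70 in fiPSC. Jak1, shared by all interferon receptors, had log2 fold changes of -1.77 in SSCiPSC and -1.998 in fiPSC (limma adjusted p = 0.000447 and 0.000235). Tyk2, the second kinase of the type I receptor, did not pass the test, with 7.29, 6.83 and 5.95 FPKM in SSC, SSCiPSC and fiPSC (means of 3). Stat3, which LIF receptors also use, stood at 59.2, 60.5 and 61.9 FPKM in SSC, at 24.8, 29.4 and 30.9 in SSCiPSC and at 16.6, 19.2 and 22.8 in fiPSC. Its log2 fold change was -1.07 for SSCiPSC and -1.60 for fiPSC (limma adjusted p = 0.000917 and 0.000261).

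The 3 genes that rose encode inhibitors of signalling. Socs3, a feedback inhibitor of Janus kinases, had 19.9, 17.0 and 22.8 FPKM in SSC, 84.7, 80.1 and 94.0 in SSCiPSC and 50.9, 44.0 and 72.2 in fiPSC. Its log2 fold change was 2.07 for SSCiPSC and 1.42 for fiPSC (limma adjusted p = 0.000180 and 0.00205). The phosphatase Ptpn6 rose by 2.48 and 2.70, from 1.66, 1.05 and 6.53 FPKM in SSC, and the phosphatase Ptpn2 by 0.77 and 0.70. Pias1, an inhibitor of STAT signalling, was lower, at -0.92 and -0.68.

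Of the interferon regulatory factors, 3 of 8 had a locus of their own. Irf2 had 7.07, 9.25 and 10.9 FPKM in SSC and at most 0.0990 in any iPSC library, and Irf8, known from macrophages and dendritic cells, had 4.13, 5.395 and 3.52 in SSC and at most 0.725 in iPSC. Both passed the filter through SSC alone. Irf1 was the most abundant of the 3 in iPSC.

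The nucleic acid sensors moved in both directions, and here the 2 RNA helicases that signal through Mavs parted. Ddx58, the sensor RIG-I, had 3.23, 2.202 and 2.96 FPKM in SSC, 26.8, 45.1 and 18.8 in SSCiPSC and 25.7, 19.98 and 35 in fiPSC. It rose by 2.96 in SSCiPSC and by 2.85 in fiPSC (limma adjusted p = 0.000656 and 0.000263), whereas Ifih1 was lower in every iPSC library. In SSC, Ddx58 and Ifih1 overlapped in level, and in iPSC Ddx58 was at 18.8 FPKM or more and Ifih1 at 0.276 or less in each library. Mavs, the adaptor of both, rose by 1.46 and 1.22, Trim25, the ligase that activates RIG-I, by 1.88 and 1.97, and Eif2ak2, the kinase PKR, by 2.30 and 1.84. Between SSCiPSC and SSC, 6 of 13 tested sensors and adaptors were called, 4 higher and 2 lower, a share below the 50.3% of all loci. Traf3 and Ticam1, adaptors of antiviral signalling, were the 2 called lower. Between fiPSC and SSC 9 of 14 were called, 5 higher and 4 lower, where 51.8% of all loci and 7472 of 10505 named genes were. Of the 5, Zbp1 passed the filter through fiPSC alone. Samhd1, which breaks down deoxynucleotides, was among those lower in fiPSC, at -0.63 (limma adjusted p = 0.0415), and at -0.60 did not pass in SSCiPSC (limma adjusted p = 0.0523). The kinase Tbk1 lay between 18.3 and 25.97 FPKM in all 9 libraries and was not called.

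The interferon-induced effectors moved in both directions. Of 20 tested between SSCiPSC and SSC 9 were called, a share below the 50.3% of all loci, 2 higher and 7 lower, but 5 of the 7 passed the filter through SSC alone, so that 2 higher and 2 lower remained of the 15 expressed in both groups. Between fiPSC and SSC 3 were higher and 2 lower of the 16 expressed in both, where 51.8% of all loci were called. Pml, which builds nuclear bodies, had 3.87, 2.83 and 3.77 FPKM in SSC, 40.5, 61.5 and 46.9 in SSCiPSC and 49.2, 47.9 and 55.6 in fiPSC. Its log2 fold change was 3.48 for SSCiPSC and 3.54 for fiPSC (limma adjusted p = 0.000109 and 4.19e-05). Daxx, a partner of Pml, rose by 0.91 and 0.88. Cxcl10, a chemokine named for its induction by interferon gamma, had 10.5, 14.7 and 19.0 FPKM in SSC and at most 0.354 in any iPSC library. Oasl2 and Iigp1, an interferon-inducible GTPase, also passed through SSC alone in 1 or both comparisons, with 5.515 to 10.2 and 2.65 to 8.86 FPKM in SSC and at most 1.51 and 0.358 in iPSC. Ifi27 fell from 14.1, 15.1 and 21.1 FPKM in SSC to 2.69, 0.330 and 1.12 in SSCiPSC, or by 3.01 on the log2 scale (limma adjusted p = 0.00134). Ly6e, the most abundant effector of the list, had 79.1 FPKM in SSC, 93.4 in SSCiPSC and 85.1 in fiPSC (means of 3) and did not pass the test.

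Of the 29 effectors with a locus, 10 were below 1 FPKM in all 6 iPSC libraries, and 3 in every SSC library. Mx1 was at most 0.172 FPKM in any library, Ifit1 and Ifit2 at most 0.653 in iPSC and 2.98 in SSC, and Oas2, Usp18 and Uba7, the activating enzyme for Isg15, at most 2.11 FPKM in any. Of the 5 genes of the Isg15 system, only Ube2l6, its conjugating enzyme, and Herc6, its ligase, were tested between SSCiPSC and SSC. Ube2l6 had 5.05, 7.45 and 8.13 FPKM in SSC, SSCiPSC and fiPSC (means of 3) without passing the test, and Herc6 had 3.87, 3.50 and 1.80 FPKM in SSC and at most 0.699 in iPSC. Tap1 and Psmb8, of the antigen processing machinery for MHC class I, were at 1.55 and 2.45 FPKM in SSC, 0.612 and 0.223 in SSCiPSC and 2.16 and 0.751 in fiPSC (means of 3). The interferon ligand genes had no locus of their own and were not analysed here.

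Between fiPSC and SSCiPSC 0 of 40 further pathway genes were called in limma, and 7 had an unadjusted p below 0.05, against 0.0678 and 11.7% of all loci tested. Bst2, the membrane protein tetherin, had 9.34, 5.23 and 9.37 FPKM in SSCiPSC and 19.2, 18.7 and 18.3 in fiPSC, against 6.83, 3.26 and 3.28 in SSC. It passed the test between fiPSC and SSC (log2 fold change 1.92, limma adjusted p = 0.00159) but not between fiPSC and SSCiPSC (limma adjusted p = 0.182).

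**Figure D4:**
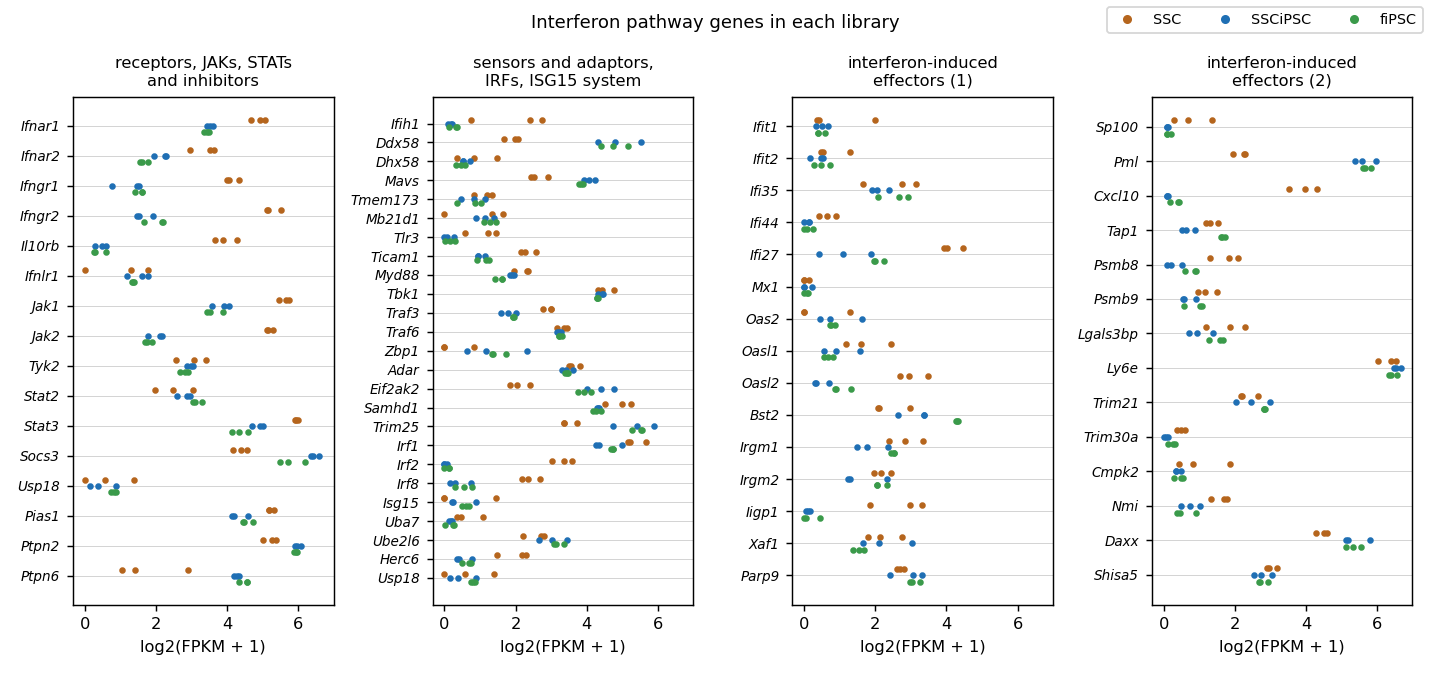
Level of the interferon pathway genes with a locus of their own in each library (horizontal axes, log2(FPKM + 1)); each row is a gene, and points are single SSC, SSCiPSC and fiPSC libraries. Jak1, Jak2, Stat3 and the receptor chains except Ifnlr1 sit higher in SSC, Ddx58, Trim25, Pml and Socs3 sit higher in iPSC, and Mx1, Ifit1 and Isg15 lie near 0 in iPSC.

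Markers of other testis cells varied among the SSC libraries, and some members varied with them. The macrophage list (9 of 12 genes with a locus) summed to 66.8, 25.5 and 221 FPKM in SSC replicates 1, 2 and 3. C1qa led it there by the mean of the 3 libraries, and none of its 9 genes was at 0. In iPSC the list summed to between 9.14 and 15.7 FPKM, most of it Cd68. Ifitm1 and the locus with Ifitm2 and Ifitm3 were likewise highest in SSC replicate 3 and lowest in replicate 2. Estimated depth ran the other way, at 1.73, 4.69 and 1.40 M fragments in SSC replicates 1, 2 and 3. In SSCiPSC 8 of the 9 macrophage genes were below 1 FPKM in every library and none was at 0 throughout, and in fiPSC 5 were, of which Ptprc was at 0 in all 3 libraries. The mast cell list (6 of 8 genes) summed to 115, 441 and 1226 FPKM in SSC, led by Tpsab1, and to at most 0.284 in iPSC, where Tpsab1, Tpsb2 and Mcpt4 were at 0 in all 6 libraries. Stat2, Ifih1, Ifnar1 and the Irf9 locus ranked the SSC libraries in the same way, lowest in replicate 1 and highest in replicate 3. Irf1 did not, and was highest in replicate 2, as was the germ line sum. The order of Isg15 was not resolved. Its 1.74 FPKM in replicate 2 lies under the 2.82 and 3.58 FPKM that a count of 0 allows in replicates 1 and 3. The Leydig cell list (3 of 8 genes) summed to 160, 124 and 236 FPKM in SSC and the fibroblast list (11 of 11) to 114, 110 and 312. Both were also highest in replicate 3 and lowest in replicate 2, and reached at most 0.358 and 71.9 FPKM in iPSC. Peritubular myoid markers (5 of 7 genes) summed to 115, 97.5 and 84.9 FPKM in SSC and to at most 14.1 in iPSC. Endothelial markers (7 of 7) summed to 122, 60.3 and 101 FPKM in SSC. In iPSC they summed to between 105 and 145 FPKM, mostly Pecam1, so this sum does not set SSC apart. Of the lymphocyte list 1 of 7 genes had a locus, Cd79b, at most at 2.39 FPKM in SSC and 3.95 in iPSC. The part of these cells in the levels of the members in SSC, and so in the differences from iPSC, was not tested.

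**Figure D5:**
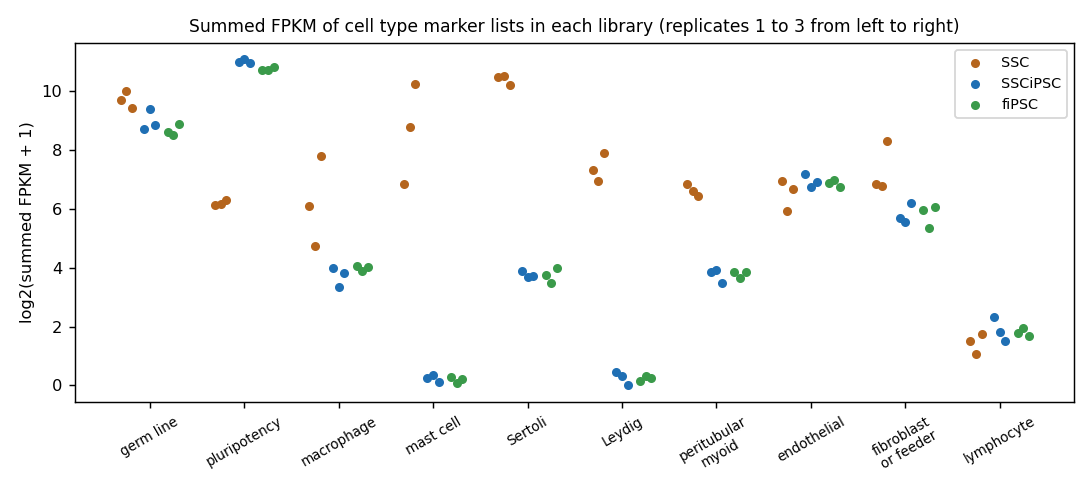
Summed FPKM of each cell type marker list (vertical axis, log2(sum + 1)) in each SSC, SSCiPSC and fiPSC library; points are libraries, replicates 1 to 3 from left to right. Macrophage and mast cell sums differ most among the SSC libraries, and pluripotency markers are high in all 6 iPSC libraries.

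The named genes whose pattern over the 9 libraries was most like that of each member were ranked by Pearson's correlation of log2(FPKM + 1), as a description over libraries that fall into 2 cell states. For Ifitm1 they were Rpl39, Gjb5 and Gm13680 (r = 0.999, 0.998 and 0.997), and for the locus with Ifitm2 and Ifitm3 they were Golm1, Gnaq and Hprt (r = 0.998, 0.995 and 0.991). For Ifnar1 they were Pafah1b2, Hsd17b3 and Bace2 (r = 0.997, 0.997 and 0.996). Such patterns were common, since 2488, 1817 and 2106 of the genes compared (10409, or 10408 for Ifnar1) exceeded an r of 0.9 with Ifitm1, the locus with Ifitm2 and Ifitm3, and Ifnar1. For Ifih1 the closest were Car8, Gtdc1 and Cpa3 (r = 0.992, 0.988 and 0.983), of which Cpa3 is a gene of the mast cell list. In all, 271 of 10408 genes exceeded 0.9 with Ifih1, so the likeness to Cpa3 was not particular to it. Only 17, 88, 83 and 4 genes exceeded 0.9 with Stat2, Irf1, the Irf9 locus and Isg15, led by Lgalsl, Gaa, Kyat1 and Me2. The pattern of Isg15 rests on values at or near the detection limit, so its likeness to other genes is not interpreted.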

How the data were processed

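Per the labels, total RNA was depleted of ribosomal RNA before a stranded mRNA library kit was used, while the methods name the kit alone. Libraries were sequenced as pairs. The authors trimmed, aligned, assembled and quantified the reads, and the submitters' processing notes list Trimmomatic 0.32, TopHat2 2.0.9, Bowtie2 2.1.0, Cufflinks 2.2.1 and Cuffdiff. The deposited values are FPKM per assembled locus and library (RPKM per the file headers). The notes name the build mm9, but 98.1% of 3038 stranded loci that matched both ends of a coding gene in GENCODE M21 (GRCm38) lay on its strand, so GRCm38 was used. From the FPKM values, loci were named by an overlap of at least 50.0% of the longer of locus and gene on the same strand, and a gene without such a locus was given from the locus overlapping it most. One locus with a blank value was left out.

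The members and lists were chosen with earlier results of these data known, and some pathway genes are not reported here. Groups were compared 2 at a time on log2(FPKM + 1) in limma 3.58.1 (R 4.3.3; lmFit and eBayes with a trend, two-sided), for loci that reached 1 FPKM in 3 or more of the 6 libraries, with Benjamini-Hochberg adjustment over all loci tested and a threshold of 0.05. A pseudocount of 1 understates changes of low genes. Named in the text are the members and, of each list, up to 3 genes with the largest called rise and fall whose groups do not overlap and with a mean of at least 5 FPKM in a group, those with a mean of at least 20 FPKM, and others needed to account for the list or chosen after their values were seen (Ifnar2, Ifngr1, Ifnlr1, Tyk2, Irf8, Ticam1, Zbp1, Mavs, Tap1, Psmb8, Mx1, Ifit1, Ifit2, Oas2 and the Isg15 system). Likeness used Pearson's r. Promoters came from RefSeq. Tested on simulated data, the fit recovered 70% of loci planted with a log2 change of 3 and 37% with 1.5 between SSCiPSC and SSC (36544 loci), 74% and 37% between fiPSC and SSC (38007 loci), and 92% and 68% between fiPSC and SSCiPSC (33948 loci), with 5.31, 9.02 and 6.43% of calls false. This simulation planted 100 loci of each size, left all others unchanged and drew normal noise with the same spread in both groups. In the data 50.3 and 51.8% of loci were called against SSC, and the SSC libraries were shallower. The recovered and false shares therefore need not hold for these comparisons. Estimated depths were within 1.37% in simulated libraries. Alternatives varied the pseudocount, filter, normalization, trend, samples in the fit and libraries.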

Additional observations from a re-analysis of the deposited data

How the results depend on the processing

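Ifitm1, the locus with Ifitm2 and Ifitm3, and Ifnar1 kept their direction and their side of the threshold against SSC in every alternative run for them. Irf1 passed in 11 of 15 alternatives for SSCiPSC and 13 of 15 for fiPSC. Between fiPSC and SSCiPSC the Irf9 locus had a log2 difference of -0.0122 without SSCiPSC replicate 3, against 0.0852 with all libraries and up to 0.1623 with another left out, and never passed the test. Leaving out 1 library gave 3 to 4 members called for SSCiPSC and 3 to 6 for fiPSC against SSC, 14477 to 18577 and 15301 to 20731 loci, and 0 members and 6 to 20 loci between the iPSC. The 3 members for fiPSC against SSC came without fiPSC replicate 1 or 2. With 1 locus per named gene, which leaves out the Ifitm loci and keeps that of Irf9 and Rnf31, 2 of 4 members were called for SSCiPSC and 3 of 4 for fiPSC, and 7191, 7472 and 49 loci were called in the 3 comparisons. A mean of at least 5 FPKM gave 10070, 10528 and 10 loci, and all 9 libraries in the fit gave 11 between the iPSC. The count there fell from 23 to 12, 11, 7 and 6 without SSCiPSC replicate 2 and fiPSC replicates 2, 3 and 1.

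Deviations of same-numbered libraries from their group means correlated between -0.236 and 0.0214, and those of other pairs between -0.134 and 0.196. They showed no sign of pairing by replicate number, which 3 libraries per group cannot exclude. With the replicate number as a block 6 loci were called between the iPSC, 3 members for SSCiPSC and 4 for fiPSC against SSC. Irf1 for SSCiPSC (limma adjusted p = 0.0577) and the Irf9 locus for fiPSC (0.109) did not pass in it. The median of all loci between SSCiPSC and SSC was 0.11, and -0.0035 after median-ratio scaling.

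The SSC libraries, at 1.40 to 4.69 M fragments (M for 1000000), limit what can be said of Isg15 and Ifih1, and the shared loci do not resolve Ifitm2 from Ifitm3 or Irf9 from Rnf31.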
